A study of Thermochaetoides thermophila with 9 samples.

Results

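Ribosomes are built in the nucleolus and cost a growing cell more than almost any other structure. RNA polymerase I copies the ribosomal DNA into a long precursor RNA, RNA polymerase III supplies the smallest ribosomal RNA and the transfer RNAs, and a large set of assembly factors (nucleases, RNA helicases, GTPases and chaperones) cuts, folds and exports the 2 precursor subunits before they can translate. In fungi this program is known to follow the supply of nutrients, and translating ribosomes of fungi need an additional elongation factor, eEF3, that animals lack.

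Here 7 genes of this program were followed in the thermophilic filamentous fungus C. thermophilum. They are the 7 locus tags that carry the names RNA polymerase I and III subunit (CTHT_0057070), rRNA-processing protein (CTHT_0062220), SLX9 (CTHT_0055990), Loc1 (CTHT_0066500), Dbp6 helicase (CTHT_0015380), NOG2 (CTHT_0055100) and translation elongation factor 3 (eEF3, CTHT_0030910) in a list of 50 genes, and they are 7 of the 7785 genes in the count table. The list of 50 was chosen by the study for its p-values in xylose against glucose in these same libraries. The contrast of xylose and glucose is therefore given below as a description, without a test. The gene names come from the study's annotation, and no value here tests whether they are right.

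All 9 cultures were wild-type mycelia, grown in complete medium at 50 °C and then depleted of carbon in a minimal medium without sugar (SPY) for 48 h. For a further 6 h, 3 cultures were exposed to 1% D-xylose, 3 to 1% D-glucose, and 3 stayed in the medium without sugar as the reference. The labels call the 3 cultures of a condition biological replicates. The paper's methods give a preculture in glucose-containing medium before the depletion and a shorter depletion, and a figure of it gives a higher temperature. Those methods name the further 6 h for the sugar cultures only, while the figure also gives it for the reference. Without that step in the reference, sugar and the added time could not be told apart. These differences from the labels could not be settled. The polyadenylated RNA was sequenced, and the gene counts of a library summed to between 38806913 and 52229013 reads. Reads on rRNA genes took between 7.36% and 32.0% of a library. Levels are given as CPM, the reads of a gene divided by the scaled size of its library and expressed per 1000000 reads. The floor set by a count of 0 (3 reads) was between 0.0530 and 0.109 CPM, and all 7 genes lay above it in every library. All 7 were also among the 6904 genes that passed the filter on low counts. CPM values are shares of a library after scaling, so a change in the total amount of mRNA per cell or in the number of cells cannot be seen in them.

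All 7 transcripts were at their highest in xylose. In each gene the lowest xylose library exceeded the highest of the 6 other libraries, at 3.15 times its level for Dbp6, the smallest such ratio, and 10.01 times for the RNA polymerase subunit, the largest. Summed over the 7 genes, the xylose libraries held 2239, 2076 and 1827 CPM, the glucose libraries 158, 141 and 136 CPM, and the reference libraries 208, 98.6 and 213 CPM. Most of this sum was eEF3. Without it the other 6 genes summed to 489, 448 and 429 CPM in xylose, 47.5, 33.2 and 26.2 CPM in glucose, and 35.1, 26.2 and 27.8 CPM in the reference.

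**Figure D1:**
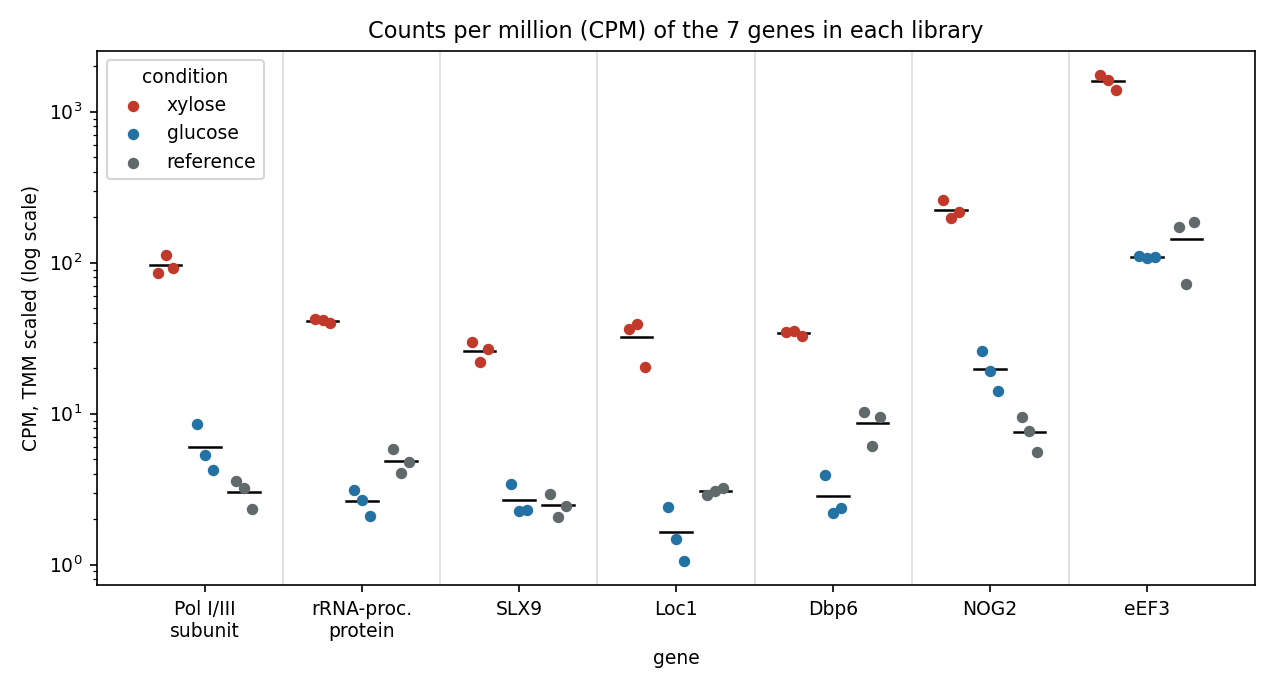
CPM of the 7 genes in each library on a log scale, with xylose (red), glucose (blue) and reference (grey) from left to right within each gene, 1 point per library and a black line at the mean of 3. The xylose points stand above all others in every gene, while the order of glucose and reference differs between genes.

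The tests set xylose and glucose each against the reference, in 1 edgeR quasi-likelihood model with Benjamini-Hochberg adjustment over all 6904 genes, and a gene with an adjusted p-value under 0.05 is called. In xylose against reference 7 of 7 genes were called higher, where 32.3% of all genes were called higher and 32.4% lower. For 7 of 7 genes all xylose libraries lay above all reference libraries, which held for 33.2% of all genes. The median log2-fold change was 3.39 over the 7 genes and -0.05 over all genes. These tests use the xylose libraries that also chose the list, so the direction is not independent of the choice. In glucose against reference 2 of 7 were called higher and 2 of 7 lower, where 24.0% of all genes were called higher and 25.4% lower. The glucose libraries lay entirely above the reference libraries in 2 of the 7 genes (29.7% of all genes) and entirely below them in 3 (30.5% of all genes). The median log2-fold change was -0.39 over the 7 genes and -0.05 over all genes. The counts for glucose are near those of all genes, and both comparisons share the reference libraries. The glucose libraries also chose the list, so the direction in glucose is not independent of the choice either.

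**Figure D2:**
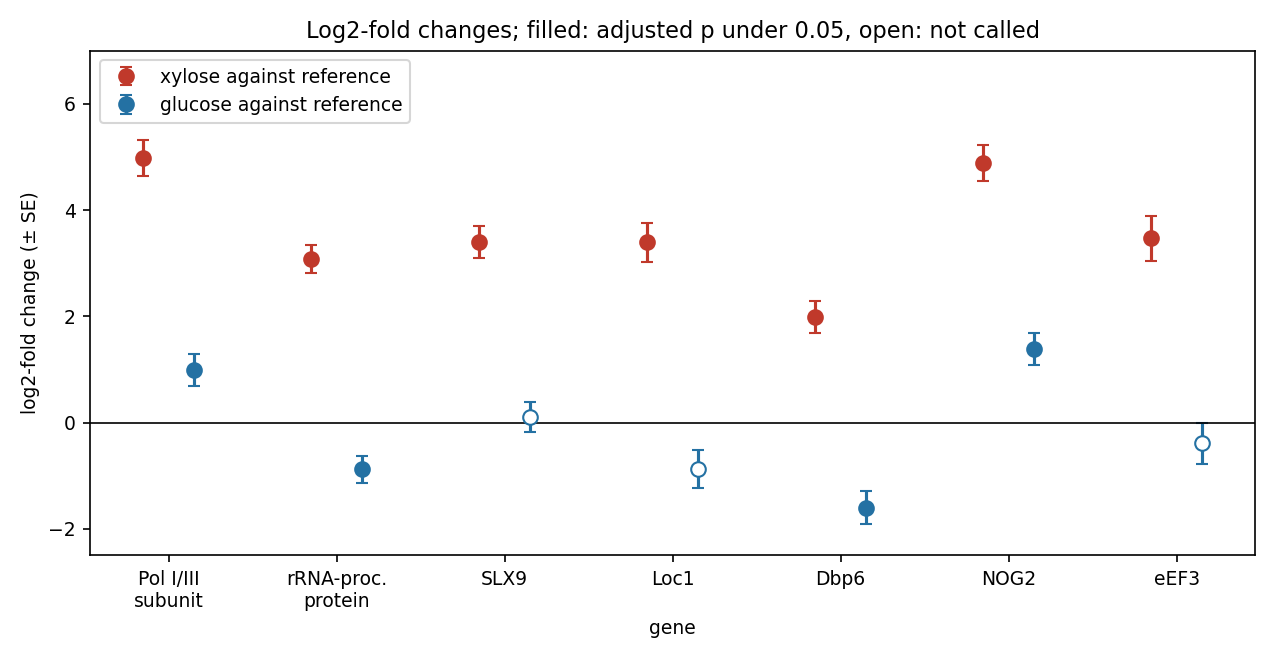
Log2-fold changes of the 7 genes in xylose (red) and glucose (blue) against the reference, with the standard error. Filled points have an adjusted p-value under 0.05 and open points do not. All 7 xylose points lie between 1.99 and 4.98, while the glucose points lie between -1.60 and 1.38.

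The RNA polymerase gene codes for a subunit that polymerases I and III share, and so stands at the first step of the program. Its transcript had 85.4, 112 and 92.4 CPM in xylose, 8.53, 5.29 and 4.26 CPM in glucose and 3.57, 3.23 and 2.34 CPM in the reference. The 3 conditions did not overlap, with glucose between the others. Against the reference the transcript was 31.6-fold higher in xylose (log2-fold change 4.98, SE 0.34, edgeR adjusted p = 3.24e-06), and only 18 of the 6904 genes tested rose more. It was 1.98-fold higher in glucose (log2-fold change 0.99, SE 0.29, edgeR adjusted p = 0.0170). The call in glucose was lost without reference replicate 3 (edgeR adjusted p = 0.0663) and with scaling by total counts (edgeR adjusted p = 0.0647), while that in xylose was not lost without any single library.

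The rRNA-processing protein CTHT_0062220 is annotated as the U3 small nucleolar RNA-associated protein 24, which in Saccharomyces cerevisiae is an endonuclease of the complex that cuts the small-subunit RNA out of its precursor. It had 42.3, 41.5 and 40.1 CPM in xylose, 3.12, 2.68 and 2.11 CPM in glucose and 5.82, 4.04 and 4.75 CPM in the reference. The 3 xylose cultures differed by no more than 1.05 times, and glucose lay below the reference without overlap. The transcript was 8.47-fold higher in xylose than in the reference (log2-fold change 3.08, SE 0.27, edgeR adjusted p = 6.32e-06). In glucose it was 1.84-fold lower than in the reference (log2-fold change -0.88, SE 0.25, edgeR adjusted p = 0.0143). This second call was fragile. Without glucose replicate 1, 2 or 3 its edgeR adjusted p was 0.0516, 0.0533 and 0.0528, without reference replicate 1 it was 0.0579, and with scaling by total counts it was 0.0719.

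SLX9 is a factor that in S. cerevisiae takes part in maturation and export of the small subunit. Its transcript had 29.9, 21.9 and 26.7 CPM in xylose, 3.42, 2.28 and 2.29 CPM in glucose and 2.95, 2.07 and 2.43 CPM in the reference. Here the glucose and reference libraries overlapped. SLX9 was 10.5-fold higher in xylose than in the reference (log2-fold change 3.39, SE 0.30, edgeR adjusted p = 7.61e-06). In glucose its log2-fold change was 0.10 (SE 0.28, edgeR adjusted p = 0.779), and it changed sign to -0.11 when libraries were scaled by total counts without the rRNA genes.

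The next 3 genes act on the large subunit, and in glucose Dbp6 fell while NOG2 rose. Loc1, in S. cerevisiae a nuclear RNA-binding protein needed for assembly of the large subunit, had 36.6, 39.1 and 20.3 CPM in xylose, 2.41, 1.47 and 1.06 CPM in glucose and 2.87, 3.05 and 3.22 CPM in the reference. Xylose replicate 3 was the lowest of its condition by 1.93 times against the highest, and the glucose libraries lay below the narrow range of the reference. Loc1 was 10.5-fold higher in xylose than in the reference (log2-fold change 3.39, SE 0.37, edgeR adjusted p = 2.26e-05). Against the reference its log2-fold change in glucose was -0.87 (SE 0.35) and was not called (edgeR adjusted p = 0.0605). It would have been called without xylose replicate 3 (edgeR adjusted p = 0.0486).

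Dbp6, a DEAD-box RNA helicase that in S. cerevisiae acts on early precursors of the large subunit, had 34.8, 35.5 and 32.6 CPM in xylose, 3.93, 2.21 and 2.36 CPM in glucose and 10.3, 6.11 and 9.45 CPM in the reference. The 3 conditions did not overlap, with glucose lowest and the reference between the sugars. Of the 7 genes it rose least in xylose, 3.97-fold against the reference (log2-fold change 1.99, SE 0.30, edgeR adjusted p = 0.000195). It was also the gene that fell most in glucose, to a level 3.03-fold lower than in the reference (log2-fold change -1.60, SE 0.31, edgeR adjusted p = 0.00175). Both calls held without any single library.

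NOG2 is a GTPase that in S. cerevisiae binds late nuclear precursors of the large subunit and is released before their export. Its transcript had 260, 199 and 217 CPM in xylose, 26.1, 19.2 and 14.1 CPM in glucose and 9.53, 7.70 and 5.59 CPM in the reference. Glucose lay between the others without overlap, as it did for the RNA polymerase subunit. NOG2 was 29.6-fold higher in xylose than in the reference (log2-fold change 4.89, SE 0.34, edgeR adjusted p = 3.24e-06), rank 29 by increase among all genes tested. In glucose it was 2.61-fold higher (log2-fold change 1.38, SE 0.30, edgeR adjusted p = 0.00317), a call that held without any single library. The gene next to NOG2 after it in the annotation, CTHT_0055110, rose by 3.91 on the log2 scale in xylose (edgeR adjusted p = 9.79e-06) and by 2.87 in glucose (edgeR adjusted p = 0.000151) against the reference. The gene before NOG2, CTHT_0055090, was not called in either sugar, with log2-fold changes of 0.49 in xylose (edgeR adjusted p = 0.284) and 0.95 in glucose (edgeR adjusted p = 0.0648). Of the 14 direct neighbours of the 7 genes, 7 were called higher and 3 lower in xylose against reference, and 3 higher and 2 lower in glucose against reference. Over all genes tested, 32.3% were called higher and 32.4% lower in xylose, and 24.0% higher and 25.4% lower in glucose. Of these neighbours, CTHT_0055110 was singled out only once its values had been seen. The annotation shows no overlap between any of the 7 genes and a neighbour.

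eEF3 is an ATPase that in fungi frees the spent transfer RNA from the ribosome, and its transcript had the highest CPM of the 7 in every library, also per gene length. It had 1750, 1628 and 1398 CPM in xylose, 110, 108 and 110 CPM in glucose and 173, 72.4 and 185 CPM in the reference. The glucose cultures were nearly equal, differing by 1.02 times, while those of the reference spread over 2.55 times, with replicate 2 below all glucose libraries and replicates 1 and 3 above them. eEF3 was 11.1-fold higher in xylose than in the reference (log2-fold change 3.47, SE 0.42, edgeR adjusted p = 4.17e-05). In glucose its log2-fold change was -0.39 (SE 0.38) and was not called (edgeR adjusted p = 0.418). Without reference replicate 2 that value became -0.70 and was called (edgeR adjusted p = 0.0406), and the log2-fold change in xylose became 3.06.

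The order of the 7 genes also differed between conditions. Levels are compared between genes as CPM per kilobase of annotated gene length, which includes introns. In xylose eEF3 had a mean of 459, followed by NOG2 with 92.9 and the polymerase subunit with 81.8, whose ranges overlapped. Loc1 with 47.3, the rRNA-processing protein with 35.5 and SLX9 with 33.0 formed a group in which neighbours overlapped, and Dbp6 came last with 13.4 and no overlap. In glucose eEF3 led with 31.5, NOG2 had 8.19 and the polymerase subunit 5.11, and Dbp6 with 1.11 was again the lowest without overlap. In the reference only eEF3 with 41.4 stood apart. The other 6 lay between 4.51 for Loc1 and 2.58 for the polymerase subunit, and each overlapped its neighbour in the order.

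**Figure D3:**
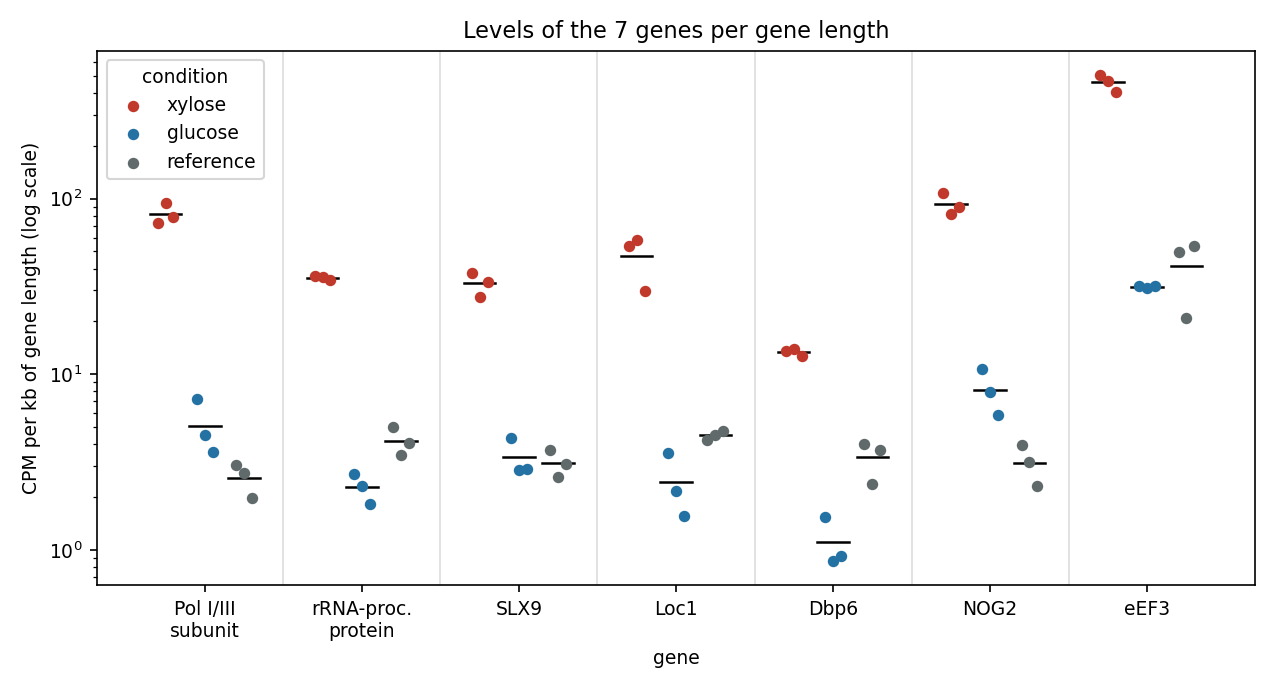
CPM per kilobase of gene length for the 7 genes on a log scale, with xylose (red), glucose (blue) and reference (grey) from left to right within each gene, 1 point per library and a black line at the mean of 3. In xylose the means of the 6 genes other than eEF3 spread between 13.4 and 92.9, and in the reference they lie between 2.58 and 4.51.

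Among all 7785 genes listed, the mean CPM of eEF3 exceeded that of 98.7% of genes in xylose, 83.1% in glucose and 87.0% in the reference. NOG2 stood above 92.4% of genes in xylose, 49.2% in glucose and 31.6% in the reference. The polymerase subunit stood above 81.9% of genes in xylose, 29.3% in glucose and 22.0% in the reference. The remaining 4 genes were near the middle in xylose, between 51.3% for SLX9 and 63.7% for the rRNA-processing protein. In glucose they lay between 18.9% and 22.2%, and in the reference between 20.5% and 33.5%.

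In xylose against glucose, the contrast that chose the list, the log2-fold changes ran from 3.29 for SLX9 (SE 0.30) to 4.26 for Loc1 (SE 0.39), with a median of 3.87 over the 7 genes and 0.16 over all genes. All 7 were past the threshold and higher in xylose, where 28.2% of all genes were, and since the list was chosen on this contrast nothing is read from that count. Between these ends lay NOG2 with 3.50 (SE 0.32), Dbp6 with 3.59 (SE 0.33), eEF3 with 3.87 (SE 0.43), the rRNA-processing protein with 3.96 (SE 0.28) and the polymerase subunit with 3.996 (SE 0.32). When the genes were ranked by p-value with the DESeq2 Wald test, the 7 took ranks 3 to 46. The genes at ranks 49 and 50, just inside a list of 50, were CTHT_0041810 and CTHT_0042460 with log2-fold changes of -4.52 and -4.07. Those at ranks 51 and 52, just outside, were CTHT_0008010 with 3.37 and CTHT_0011860 with 2.14. With the edgeR test the 7 took ranks 3 to 156, and only eEF3, at 156, lay outside the first 50.

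Glucose replicate 1 was the highest glucose library for 7 of 7 genes, where it was the highest for 41.0% of all genes tested. Glucose replicate 3 was the lowest for 4 of 7, and for 43.6% of all genes. In the reference, replicate 2 was the lowest for 4 of 7 genes and the highest for 0, while over all genes it was the lowest for 41.8% and the highest for 40.2%. Across the 9 libraries the log2 CPM of each gene followed the mean of the other 6 with a Pearson r between 0.889 for Dbp6 and 0.993 for SLX9. This r is a description over 9 libraries of 3 conditions, and it mostly reflects the conditions that the libraries share.

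The same measure was used to name the 10 genes most like the 7 among the other 6897 tested. They were CTHT_0059020 and CTHT_0047090 (Pearson r 0.993 each), CTHT_0042520 (0.992), CTHT_0069870 and CTHT_0016040 (0.991 each), CTHT_0058230 (0.991), CTHT_0061240, CTHT_0015620 and CTHT_0072950 (0.989 each) and CTHT_0014260 (0.988). Of these the study's annotation names CTHT_0016040, a mitochondrial dicarboxylate transporter of the same list of 50. It averaged 44.5 CPM in xylose, 3.56 CPM in glucose and 4.99 CPM in the reference. The likeness is not rare, since 255 genes had an r over 0.95 and 163 genes an r under -0.95. By Spearman's rho of CPM 0 of these 10 genes were among the first 10.

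The list of 50 places 3 further genes in its classes of ribosome maturation and RNA polymerases I and III. The ribosomal RNA-processing protein 15 (CTHT_0025020), a large-subunit assembly factor, had 58.3, 65.9 and 70.4 CPM in xylose, 9.36, 7.54 and 7.64 CPM in glucose and 5.26, 4.28 and 3.96 CPM in the reference. It rose in both sugars, by 3.85 on the log2 scale in xylose (edgeR adjusted p = 2.94e-06) and by 0.86 in glucose (edgeR adjusted p = 0.00879), each against the reference. The RNA polymerase III subunit Rpc4 (CTHT_0052940) rose in xylose by a log2-fold change of 3.33 (edgeR adjusted p = 5.73e-06) and was not called in glucose (0.32, edgeR adjusted p = 0.314). Likewise gar2 (CTHT_0060190), a glycine- and arginine-rich nucleolar protein, rose in xylose by a log2-fold change of 2.79 (edgeR adjusted p = 7.81e-06) and was not called in glucose (-0.18, edgeR adjusted p = 0.559). As for the 7 genes, the choice of the list fixed the contrast of xylose and glucose.

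To set the 7 genes beside the rest of the translation machinery, lists were read from the gene names in the study's annotation. The lists of ribosomal proteins and translation factors hold genes named among the highest transcripts in glucose, and those of rRNA processing and of polymerases hold genes that the study called in these libraries. They are no random sample and not independent evidence of a direction. Over all genes tested, 32.3% were called higher and 32.4% lower in xylose against reference, and 24.0% higher and 25.4% lower in glucose against reference. In xylose against reference the median log2-fold change was 3.39 over the 7 genes, beside 3.21 over 65 cytosolic ribosomal proteins, 3.74 over 4 other elongation factors, 2.62 over 20 initiation factors, 2.04 over 23 rRNA processing and assembly factors and -0.05 over all genes. In glucose against reference it was -0.39 over the 7 genes, beside 1.71 over the ribosomal proteins, 1.73 over the elongation factors, 0.93 over the initiation factors, -0.99 over the rRNA processing and assembly factors and -0.05 over all genes. These medians move with single reference libraries. Without reference replicate 2 the median in xylose against reference was 3.18 over the 7 genes, beside 4.38 over the ribosomal proteins. In glucose against reference it was -0.70 over the 7 genes, beside 2.98 over the ribosomal proteins. Without reference replicate 1 or 3 the xylose medians were 3.54 and 3.43 over the 7 genes, beside 2.88 and 2.80 over the ribosomal proteins. The glucose medians were then -0.24 and -0.17 over the 7 genes, beside 1.37 and 1.29 over the ribosomal proteins.

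**Figure D4:**
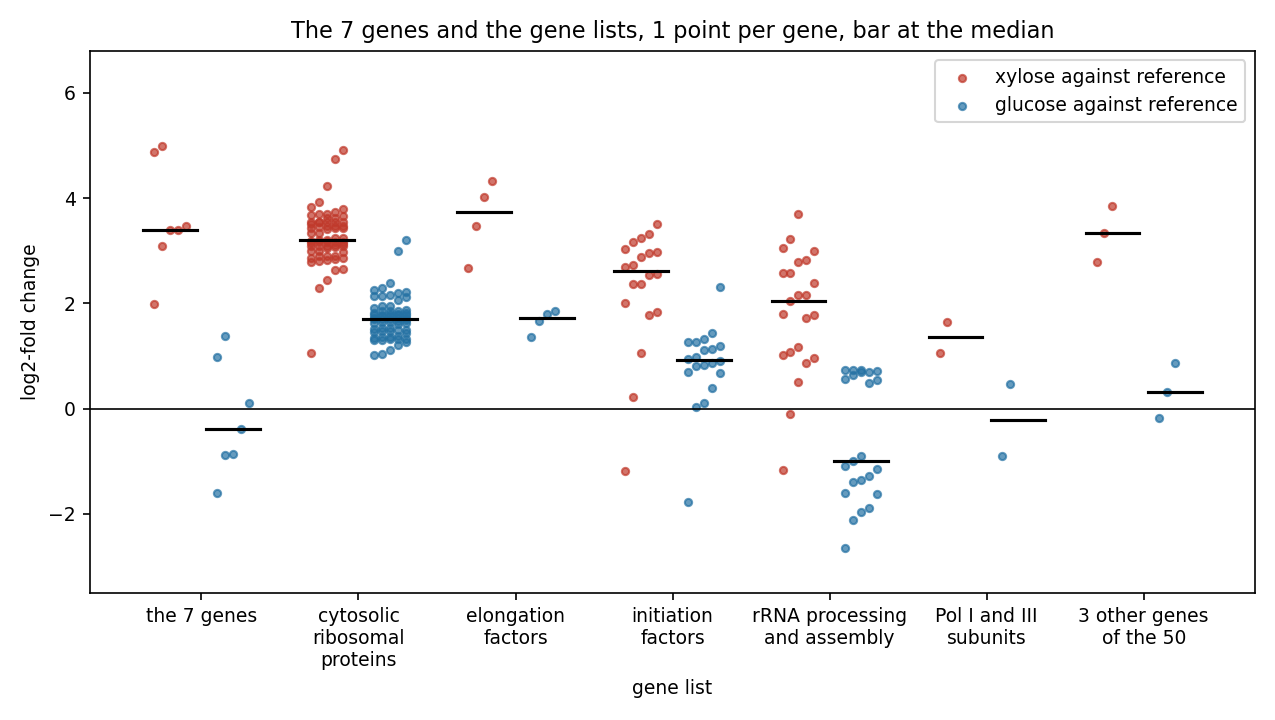
Log2-fold changes in xylose (red, left) and glucose (blue, right) against the reference for the 7 genes and the gene lists, 1 point per gene with a bar at the median. The lists are no random sample. In glucose the 7 genes have 3 points above 0 (SLX9, at 0.10, moves to -0.11 with total counts without rRNA genes) and 4 below, and the rRNA processing and assembly factors 10 above and 13 below, while all 65 ribosomal proteins lie above 0 in both sugars.

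All 65 cytosolic ribosomal proteins were called higher in xylose, where 32.3% of all genes were. The largest changes were those of S12 (CTHT_0070080), with a log2-fold change of 4.92 (edgeR adjusted p = 0.000420), and of the l5-like protein of the large subunit (CTHT_0063640), with 4.75 (edgeR adjusted p = 0.000583). The smallest was 1.06 for a putative protein of the small subunit, CTHT_0018890 (edgeR adjusted p = 0.0467), followed by 2.29 for the L10-like protein CTHT_0063830 (edgeR adjusted p = 0.00367). In glucose 39 of 65 were called higher and 0 lower, where 24.0% of all genes were called higher and 25.4% lower. The list holds genes named among the highest transcripts in glucose, so this direction is not independent of the choice. The count of 39 moved with single libraries. It was 6, 65 and 7 without reference replicate 1, 2 and 3, 10 and 9 without glucose replicate 2 and 3, and 24 and 25 without xylose replicate 1 and 3.

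Beside eEF3, whose log2-fold change was 3.47 in xylose and -0.39 in glucose, the 4 other elongation factors all rose in xylose, and 3 were called higher in glucose. Over all genes 32.3% were called higher in xylose and 24.0% in glucose. These 4 too come from genes named among the highest transcripts in glucose. The count in glucose was 0 without reference replicate 1 or 3 and 1 without any one of the glucose libraries. Elongation factor 1-gamma (CTHT_0067860) rose by 4.33 on the log2 scale in xylose (edgeR adjusted p = 0.000263) and by 1.85 in glucose (edgeR adjusted p = 0.0292). Elongation factor 1-alpha (CTHT_0012210), which brings transfer RNAs to the ribosome, rose by 4.01 in xylose (edgeR adjusted p = 0.000559) and by 1.79 in glucose (edgeR adjusted p = 0.0408). A putative elongation factor, CTHT_0033570, rose by 3.48 in xylose (edgeR adjusted p = 0.000168) and by 1.67 in glucose (edgeR adjusted p = 0.0152). The smallest increase in xylose was that of elongation factor 1-beta (CTHT_0047780), 2.68 on the log2 scale (edgeR adjusted p = 0.00635), and its value in glucose was 1.37 (edgeR adjusted p = 0.116).

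Reference replicate 2 stood apart with the highest sums of the reference in the lists of ribosomal proteins, elongation factors and initiation factors. The rRNA processing and assembly factors summed to 560, 501 and 546 CPM in the reference, without such a rise. The median of this list was 15.7, 7.53 and 13.5 CPM in the same libraries, lowest in replicate 2. Its genes did not all move the same way there. The ribosomal proteins summed to 126650, 149931 and 176282 CPM in xylose, 43466, 47808 and 62826 CPM in glucose, and 8464, 35140 and 5909 CPM in the reference. Of the 7 genes, eEF3 was lowest in reference replicate 2 among the reference cultures, with 72.4 CPM beside 173 and 185 CPM, and so were Dbp6, SLX9 and the rRNA-processing protein. Loc1, NOG2 and the polymerase subunit were not lowest there, and 41.8% of all genes tested were. The part of this library in the results was not tested beyond leaving it out, and all 7 genes were called higher in xylose without it.

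**Figure D5:**
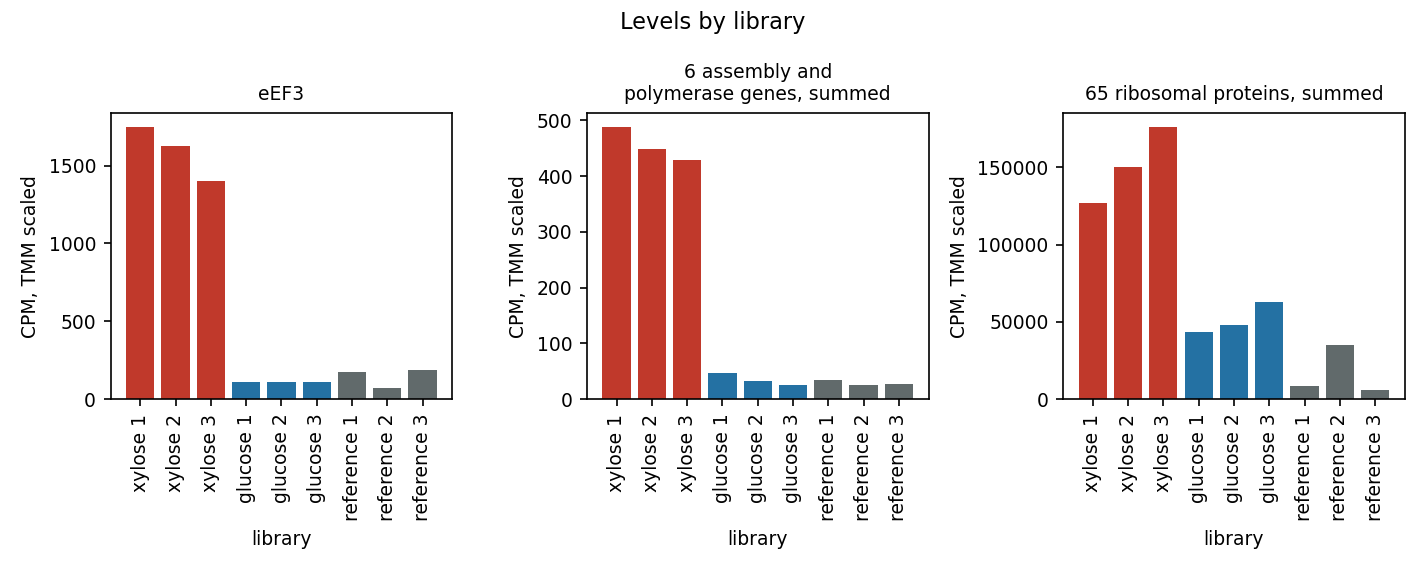
CPM by library for eEF3, for the sum of the other 6 genes and for the sum of 65 cytosolic ribosomal proteins, with xylose (red), glucose (blue) and reference (grey) from left to right. In reference replicate 2 the ribosomal proteins reach 35140 CPM, beside 8464 and 5909 CPM in the other reference libraries, while eEF3 is lowest there with 72.4 CPM.

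Of 20 initiation factors, 18 were called higher in xylose and 1 lower, where 32.3% of all genes were called higher and 32.4% lower. The largest increases were those of eIF-5A (CTHT_0029800), a translation factor with the modified residue hypusine, with a log2-fold change of 3.50 (edgeR adjusted p = 0.000111), and of eIF3e (CTHT_0020050), with 3.33 (edgeR adjusted p = 8.70e-06). A putative translation initiation factor, CTHT_0066060, fell by 1.18 on the log2 scale in xylose (edgeR adjusted p = 0.00336) and rose by 1.27 in glucose (edgeR adjusted p = 0.00393). For an eIF5-like protein, CTHT_0024540, the log2-fold change was 0.21 in xylose (edgeR adjusted p = 0.609) and the transcript fell by 1.78 in glucose (edgeR adjusted p = 0.00238). In glucose 12 of 20 were called higher and 1 lower, where 24.0% of all genes were called higher and 25.4% lower. Without reference replicate 1, 7 were called higher. The list holds genes named among the highest transcripts in glucose, so its direction is not independent of the choice.

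The 23 rRNA processing and assembly factors are the genes closest in role to the 7, and in glucose more of them were called lower than higher. In xylose 19 were called higher and 1 lower, where 32.3% of all genes were called higher and 32.4% lower. In glucose 4 were called higher and 13 lower, with log2-fold changes between -2.64 and 0.74. Over all genes 24.0% were called higher and 25.4% lower. The list holds genes that the study called in these libraries, so its counts are not independent of that choice. With 1 library left out, between 8 and 13 were called lower. Without glucose replicate 2, 8 were called lower and 0 higher. The count called higher was also 0 without reference replicate 3, 1 without xylose replicate 3, 2 without glucose replicate 1 or xylose replicate 1, and 7 without reference replicate 2 or glucose replicate 3. Puf6 (CTHT_0010150, annotated as a pumilio homology domain protein) had the largest increase in xylose, with a log2-fold change of 3.71 (edgeR adjusted p = 6.32e-06), followed by LCP5 (CTHT_0037520), a protein of the U3 small nucleolar ribonucleoprotein, with 3.23 (edgeR adjusted p = 7.22e-06). In glucose the values were 0.70 for Puf6, not called (edgeR adjusted p = 0.0636), and 0.71 for LCP5 (edgeR adjusted p = 0.0454). At the other end, the gene of a cell growth-regulating nucleolar protein, CTHT_0056740, fell in both sugars, with log2-fold changes of -1.18 in xylose (edgeR adjusted p = 0.00123) and -2.64 in glucose (edgeR adjusted p = 3.75e-05). The exoribonuclease CTHT_0008830, which trims RNA from its 5′ end, had -0.10 in xylose (edgeR adjusted p = 0.798) and -1.39 in glucose (edgeR adjusted p = 0.00589).

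The shared polymerase subunit among the 7 genes had log2-fold changes of 4.98 in xylose and 0.99 in glucose. Of the 2 other polymerase genes in the lists, the large subunit RPC1 of polymerase III (CTHT_0045300) rose in xylose by a log2-fold change of 1.65 (edgeR adjusted p = 0.000124) and fell in glucose with -0.90 (edgeR adjusted p = 0.00860). RPC8 (CTHT_0009170) rose in xylose with 1.05 (edgeR adjusted p = 0.00111), and its value in glucose was 0.47 (edgeR adjusted p = 0.0822). Without glucose replicate 2 the call of RPC1 in glucose was lost.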

How the data were processed

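The authors mapped single-end 50-bp reads of polyadenylated RNA from whole cell extracts using TopHat2 and the Ensembl release 28 genome (introns of 40 to 5000 bp), counted reads per gene with summarizeOverlaps and deposited raw counts without normalization. How the counting treated strand and reads that map to several genes is not given in the sources used here, so genes with near-identical copies are uncertain. Libraries were grouped by title. Tests on these counts used edgeR 4.0.16 and limma 3.58.1 under R 4.3.3, with TMM scaling, filterByExpr with a minimum count of 10, 1 quasi-likelihood model with 3 conditions over 9 libraries, Benjamini-Hochberg adjustment and a threshold of 0.05. The standard error is the size of the log2-fold change divided by the square root of F. The study's DESeq2 Wald test (DESeq2 1.42.0) was an alternative. Likeness used log2 CPM with a prior count of 2. Of the 7785 genes, 7472 matched RefSeq locus tags of assembly CTHT_3.0, used for lengths, neighbours and rRNA genes. Floors cover counting error only. The procedure was run on simulated data in which few genes changed, all upward and in xylose alone. That setting differs from these data, where many genes changed in both directions, so it does not test the scaling here.

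The genes, lists and tests were chosen with earlier results of these data known. Named genes were the 7, the 3 others of their classes in the list of 50, the 10 most alike, and in each list the 2 highest and 2 lowest log2-fold changes in xylose against reference. CTHT_0055110 was named after its values were seen. Lists by product name, promoter motifs and protein sequences were not analysed here. Replicates differed beyond sampling noise and each was kept as 1 library.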

Additional observations from a re-analysis of the deposited data

How the results depend on the processing

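In xylose against reference all 7 genes were called under all 17 alternatives (scaling, test, filter, samples in the fit, replicate block and each library left out), with log2-fold changes from 1.70 for Dbp6 without reference replicate 2 to 5.11 for the polymerase subunit without reference replicate 1. In glucose against reference 4 of the 7 were called, 2 with scaling by total counts, 2 at a threshold of 0.01, and between 3 and 5 with 1 library left out. The rRNA-processing protein lost its call with total counts (edgeR adjusted p = 0.0719) and with no filter (0.0528), and the polymerase subunit with total counts (0.0647) and with total counts without rRNA genes (0.0774). SLX9 turned to -0.11 with total counts without rRNA genes. Relative to TMM, this scaling moved the median of all genes by -0.24 in glucose against reference, total counts moved it by 0.11 in xylose against reference, and omitting the filter moved it by 0.18 in glucose against reference.

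Of the 23 rRNA processing and assembly factors, 8 rather than 4 were called higher in glucose with DESeq2 size factors, and 0 with total counts, with or without the rRNA genes. Of the 3 other genes of the list of 50, 0 rather than 1 were called higher in glucose under either total-count scaling. By Spearman's rho 0 of the 10 most alike genes were among the first 10, and the cause was not tested. With 1 library left out, the counts called higher in glucose ranged from 6 to 65 for ribosomal proteins, 7 to 16 for initiation factors, 0 to 4 for elongation factors and 0 to 7 for rRNA processing and assembly factors. Those called lower ranged from 8 to 13 for the last list and from 0 to 1 for the polymerase subunits.

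The libraries numbered 1 deviated together (r from 0.17 to 0.29 over 3 pairs of conditions), while those numbered 2 and 3 did not (r from -0.28 to 0.06 over 6 pairs). Because this did not hold for every pair, the numbers were not taken to pair the samples. Libraries of different numbers also deviated together, with r up to 0.28 for reference replicate 2 and a xylose library. With the replicate block Loc1 was called lower in glucose (-0.96, edgeR adjusted p = 0.0394), and 2 rather than 4 rRNA processing and assembly factors were called higher. Of 18 comparisons of a library with those of another condition, 9 had the highest correlation at its own number. List counts under total counts without rRNA genes, the block and single libraries left out were added after seeing the data. Product-name lists and promoter motifs were not run. The lowest count of any of the 7 genes in a library was 29 reads, for Loc1 in glucose replicate 3.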
